A study of Bos grunniens x Bos taurus and Bos grunniens with 6 samples.

Results

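The genes that make, break down and read the second messengers cAMP and cGMP were followed in testis RNA-seq of cattle-yak and yak. They were taken from the deposited gene table by symbol alone, as every membrane adenylyl cyclase (ADCY1 to ADCY9), guanylyl cyclase (GUCY1 and GUCY2), phosphodiesterase (PDE), protein kinase A (PKA) catalytic or regulatory subunit (PRKAC, PRKAR), protein kinase inhibitor (PKI), cGMP-dependent kinase (PRKG), A-kinase anchoring protein (AKAP), Rap exchange factor (RAPGEF) and cyclic nucleotide-gated channel subunit (CNG). AKAP3 and AKAP4 were left out of the set. The rule found 78 of the 18918 genes under 77 symbols, because ADCY1 stood on 2 gene models. Of these, 70 reached the minimum mean of 0.5 FPKM across the 6 animals and were tested. A few members carry a family name without acting on a cyclic nucleotide, among them PDE12, an RNA-processing enzyme of mitochondria, PDE6D, a chaperone of prenylated proteins, and RAPGEF1, an exchange factor recruited by Crk adaptors.

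Each library came from the testis of 1 male animal of 4 years, without pooling, which gave 3 cattle-yak and 3 yak. The cattle-yak libraries labelled TES5, TES6 and TES7 are named C1, C2 and C3 here, and the yak libraries Yak8, Yak9 and Yak10 are named Y1, Y2 and Y3. The cattle-yak were first-generation hybrids of Jersey bulls and Gannan yak cows, from Xiahe County, and their testes were removed by surgical castration. The yak were Gannan yak from Linxia County, and their testes were collected after euthanasia, so county and procedure cannot be told apart from the hybrid genotype. Expression was given as FPKM, that is fragments scaled by the length of the gene model and the depth of the library, after reads of both groups had been mapped to the yak genome.

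In the textbook pathway, a receptor such as the FSH receptor of Sertoli cells activates a membrane adenylyl cyclase through the stimulatory G protein, and cAMP then releases the catalytic subunits of PKA from their regulatory subunits. Phosphodiesterases end the signal, PKI peptides block free catalytic subunits, and AKAPs hold the kinase at defined places in the cell. Sertoli and Leydig cells use this route for gonadotropin signals, while spermatids and sperm use a bicarbonate-stimulated cyclase and sperm-specific anchoring proteins of the flagellum.

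The values rested on 11175101 to 11834988 fragments per cattle-yak library and 12991642 to 13136130 per yak library, so that 1 fragment on a gene of 1 kb stood for 0.0761 to 0.0895 FPKM. A gene was called in a limma fit of log2(FPKM + 1) where its adjusted p lay under 0.05 and its log2 fold change passed 1 in size. Markers of spermatids were nearly lost in cattle-yak, with all 6 tested gene models of the round spermatid list lower, 2 of them of CREM (summed level 14.6 to 61.8 FPKM against 1147 to 1369 in yak) and all 6 of the elongating spermatid list lower (26.1 to 83.0 against 8384 to 10288). The spermatocyte list had 1 gene higher, 3 lower and 6 not called of 10 (283 to 469 FPKM against 759 to 798). Markers of the remaining cell types were mostly higher, with 13 of 13 tested Sertoli gene models (3009 to 3190 FPKM against 625 to 690), 8 of 8 Leydig gene models (3 of them of CYP17A1, 10468 to 12471 against 3352 to 4889), 6 of 6 myoid models (584 to 782 against 119 to 147) and 7 of 8 spermatogonial models (736 to 939 against 178 to 246). After median-of-ratios scaling 11 Sertoli, 6 Leydig, 6 myoid and 6 spermatogonial models were still called higher, and 5 of the spermatocyte list were lower. Of the endothelial list, 3 genes were higher and 1 lower of 6, and of the macrophage list 2 were higher and 2 lower of 5. The endothelial, macrophage and spermatocyte genes called higher lost that call under median-of-ratios scaling, which left 1 endothelial and 2 macrophage genes called lower. GATA1 of the Sertoli list was at 0 in each cattle-yak library, and no spermatid marker was at 0 in all of them. In bulk tissue, fewer cells of a type and less RNA per cell cannot be told apart, and the part of this composition in the results below was not tested.

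Of the 70 tested cyclic nucleotide genes, 16 (22.9%) were called higher in cattle-yak, where 33.4% of all tested genes were, and 19 (27.1%) were called lower, where 20.8% of all tested genes were. The other 35 were not called, and 21 of these had an adjusted p under 0.05 with a log2 fold change within 1. All 3 cattle-yak lay above all 3 yak for 28 members (40%), against 53.9% of all tested genes, and below them for 27 (38.6%), against 30.2%, while the ranges of 15 members overlapped. The median log2 fold change, cattle-yak minus yak, was −0.04 over the members and 0.51 over all tested genes. Scaling the libraries by median-of-ratios size factors moved the median of all genes to 0.01 and that of the members to −0.50. Such a factor shifts all genes of a library nearly alike, so the gap between these medians could hardly change. With that scaling 9 members were called higher, all among the 16, beside 17.4% of all tested genes, and 23 were called lower, including all 19, beside 27.9% of all tested genes. The 9 were PRKACB, ADCY9, ADCY5, PKIA, PRKAR2B, PDE5A, AKAP7, RAPGEF3 and AKAP5. The counts by role below are to be read beside the shares of all tested genes, 33.4% higher and 20.8% lower.

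**Figure D1:**
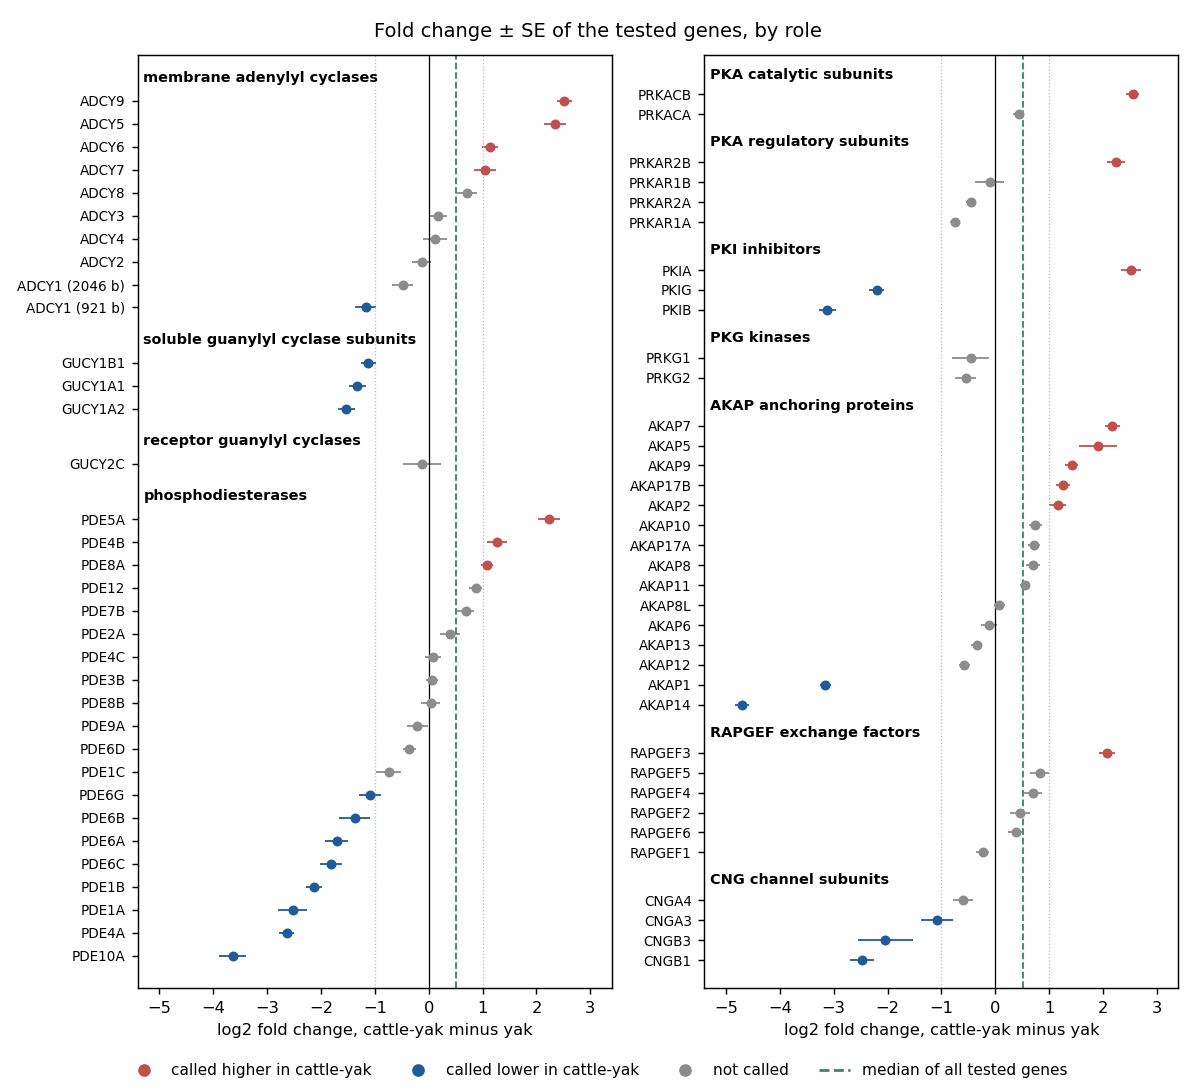
Log2 fold change (cattle-yak minus yak, on log2(FPKM + 1)) with its standard error for the 70 tested genes, grouped by role, where a point is a gene, red was called higher, blue lower and grey not called. The dashed line is the median of all tested genes (0.51); the 3 soluble guanylyl cyclase subunits all lay on the lower side, while adenylyl cyclases and anchoring proteins lay on both sides.

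Among the membrane adenylyl cyclases, which make cAMP from ATP, 4 of the 10 gene models were higher in cattle-yak, 1 was lower and 5 were not called. ADCY9, a widely expressed cyclase that is little affected by forskolin, had 20.5, 20.2 and 17.1 FPKM in C1, C2 and C3, against 2.76, 2.22 and 2.67 in Y1, Y2 and Y3. Its lowest cattle-yak value was thus far above its highest yak value, and the log2 fold change was 2.51 ± 0.14 (SE; limma, adjusted p = 1.16e-06). ADCY5, a cyclase inhibited by calcium and by inhibitory G proteins, had 6.71, 9.6 and 7.12 FPKM in cattle-yak and 1.13, 0.667 and 0.448 in yak. The groups of ADCY5 were again separate, with a log2 fold change of 2.34 ± 0.20 (limma, adjusted p = 1.20e-05).

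ADCY6, the nearest relative of ADCY5, and ADCY7 were higher by 1.13 and 1.04 on the log2 scale, and neither was called after median-of-ratios scaling (0.61 and 0.66). ADCY7 also fell under the fold threshold without C1 (0.93), without C2 (0.97) or without Y3 (0.95). ADCY3, a cyclase of olfactory cilia that is also found in sperm, did not pass the test, with 9.47 to 12.6 FPKM in cattle-yak and 7.80 to 11 in yak. The order of abundance thus differed, with ADCY9 holding 34.4% ± 3.21 (SD, n = 3) of the summed cyclase FPKM in cattle-yak and 9.81% ± 0.28 in yak, and ADCY3 holding 19.9% ± 2.49 and 37.4% ± 3.95. These shares are ratios within a library and do not depend on the scaling between libraries.

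The summed FPKM of the membrane cyclases was 54.2, 63.8 and 50.7 in cattle-yak and 28.7, 22.9 and 26.3 in yak. ADCY1, a calcium-stimulated cyclase of neurons, was the only one called lower, on its model of 921 bases, with 0.917, 1.46 and 0.842 FPKM in cattle-yak and 3.55, 4.56 and 2.93 in yak (log2 fold change −1.17 ± 0.19; limma, adjusted p = 0.000545). Its model of 2046 bases was not called, with 0.548 to 1.14 FPKM in cattle-yak and 1.04 to 1.86 in yak, so the 2 models of ADCY1 remain uncertain. ADCY2, ADCY4 and ADCY8 were not called, and among these only ADCY8 had separate groups (2.13 to 3.64 FPKM in cattle-yak and 1.01 to 1.43 in yak).

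All 3 tested subunits of soluble guanylyl cyclase, the nitric oxide receptor that makes cGMP, were lower in cattle-yak. GUCY1B1, the beta subunit that carries the heme, had 7.42, 9.40 and 10.2 FPKM in cattle-yak and 21.7, 20.5 and 19.7 in yak. GUCY1A1, the main alpha subunit, had 3.84, 4.89 and 3.19 FPKM in cattle-yak and 11.1, 11.2 and 11.8 in yak. Neither gene overlapped between the groups, and the log2 fold changes were −1.12 ± 0.14 for GUCY1B1 (limma, adjusted p = 9.40e-05) and −1.33 ± 0.16 for GUCY1A1 (limma, adjusted p = 7.23e-05).

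GUCY1A2, the second alpha subunit, had 4, 1 and 5 fragments in cattle-yak against 81, 59 and 80 in yak, that is 0.0356 to 0.171 FPKM against 1.79 to 2.45 (log2 fold change −1.53; limma, adjusted p = 3.85e-05). The size of that fold change is set by the pseudocount, and voom on the fragments gave −4.26. The soluble subunits together reached 13.1 ± 1.53 FPKM in the 3 cattle-yak and 34.3 ± 0.89 in the 3 yak (mean ± SD). GUCY1B1 held the largest share of it in every library, with 68.6% ± 5.56 in cattle-yak and 60.1% ± 2.11 in yak. Of the receptor guanylyl cyclases only GUCY2C, the guanylin receptor, was tested, and it did not differ detectably (limma, adjusted p = 0.741), with 6.95 FPKM in Y3 and 2.05 to 3.41 in the other 5 animals. GUCY2D and GUCY2F of photoreceptors and GUCY1B2 stayed under the minimum, with at most 0.335 FPKM in any animal.

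**Figure D2:**
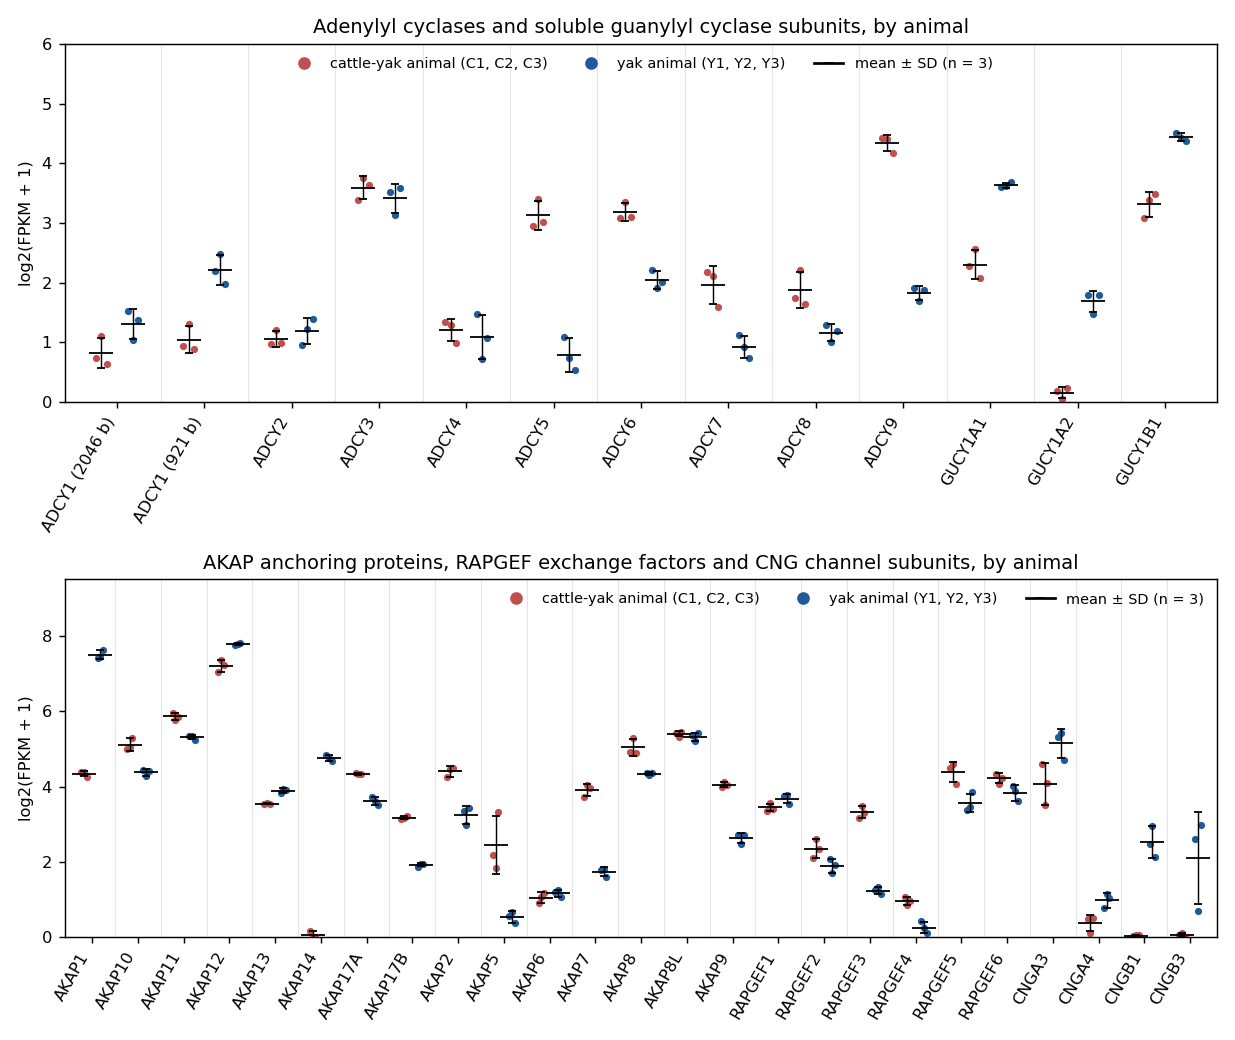
FPKM on the log2(FPKM + 1) scale of each animal for cyclases (upper panel) and for anchoring proteins, exchange factors and channel subunits (lower panel), with red points for C1 to C3, blue points for Y1 to Y3 and bars for the mean ± SD of the plotted values (n = 3). ADCY9 lay at 17.1 to 20.5 FPKM in cattle-yak and 2.22 to 2.76 in yak, and AKAP1 at 18.1 to 20.1 and 170 to 197.

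Of the 20 tested phosphodiesterase genes, 3 were higher in cattle-yak, 8 were lower and 9 were not called. PDE5A, the cGMP-specific enzyme of smooth muscle that sildenafil inhibits, had 98.1, 115 and 151 FPKM in cattle-yak and 29.4, 18.3 and 27.6 in yak. The log2 fold change of PDE5A was 2.23 ± 0.21 (limma, adjusted p = 1.95e-05), and it was the most abundant phosphodiesterase in each cattle-yak library. PDE10A, an enzyme for both nucleotides best known from the striatum and also described in testis, had 3.78, 2.73 and 1.33 FPKM in cattle-yak and 42.3, 45.9 and 38.9 in yak. In yak PDE10A had the highest mean of the phosphodiesterases, although PDE4A exceeded it in Y3, and its log2 fold change was −3.64 ± 0.25 (limma, adjusted p = 3.19e-06). PDE5A thus stood at 25.9, 42.2 and 113.6 times the level of PDE10A in C1, C2 and C3, and at 0.696, 0.399 and 0.710 times it in the yak.

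The 2 members specific for cAMP with the highest mean FPKM over all animals moved in opposite directions. No gene of the set had the symbol PDE4D or PDE7A. PDE4A, a target of rolipram, had 5.14, 6.54 and 4.75 FPKM in cattle-yak and 38.8, 36.3 and 42.4 in yak (log2 fold change −2.64 ± 0.14; limma, adjusted p = 9.25e-07). PDE8A, a high-affinity enzyme that limits steroid synthesis in Leydig cells, had 24.6, 25.3 and 26.5 FPKM in cattle-yak and 11.6, 10.9 and 12 in yak (log2 fold change 1.08 ± 0.10; limma, adjusted p = 2.23e-05). PDE8A was not called after median-of-ratios scaling (0.49), where PDE4A remained lower by 3.20. The ratio of PDE8A to PDE4A within a library was 4.75 ± 0.85 for cattle-yak and 0.295 ± 0.0092 for yak (SD, n = 3). PDE4B, the family member of immune cells, was higher with 3.94 to 5.94 FPKM in cattle-yak and 1.11 to 1.76 in yak (log2 fold change 1.27), and was not called after median-of-ratios scaling (0.82).

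In the PDE1 family, which calcium and calmodulin activate, 2 of 3 genes were lower in cattle-yak. PDE1A had 1.89, 3.48 and 1.28 FPKM in cattle-yak and 16.6, 13.6 and 21.0 in yak (log2 fold change −2.53 ± 0.26; limma, adjusted p = 3.62e-05). PDE1B had 1.63, 1.76 and 1.28 FPKM in cattle-yak and 11.2, 9.07 and 10.4 in yak (log2 fold change −2.14 ± 0.15; limma, adjusted p = 4.07e-06). The family summed to 4.91 ± 1.75 FPKM (SD, n = 3) among cattle-yak against 29.9 ± 5.10 among yak. The remaining gene of the family, PDE1C, was not called (log2 fold change −0.75). The photoreceptor genes PDE6A, PDE6B, PDE6C and PDE6G were also lower, at 0.237 to 3.38 FPKM in cattle-yak and 1.71 to 7.30 in yak, with log2 fold changes from −1.82 to −1.09. PDE6G fell short of the fold threshold without C3 (−0.94).

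PDE3B, an enzyme that insulin activates in fat and liver, was the third most abundant phosphodiesterase in yak and did not differ detectably, with 35.2 to 38.0 FPKM in cattle-yak and 30.6 to 38.8 in yak (log2 fold change 0.06 ± 0.11; limma, adjusted p = 0.647; −0.55 after median-of-ratios scaling). PDE2A, which cGMP stimulates, gave 0.40 and was not called either (−0.13 after median-of-ratios scaling). PDE8B, PDE9A and PDE4C overlapped between the groups. PDE7B had 0.644 to 1.09 FPKM in cattle-yak and 0.0958 to 0.214 in yak, and its log2 fold change of 0.69, compressed by the pseudocount, became 1.93 with a pseudocount of 0.1. PDE12 was not called at 0.87, and PDE3A and PDE11A stayed under the minimum.

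**Figure D3:**
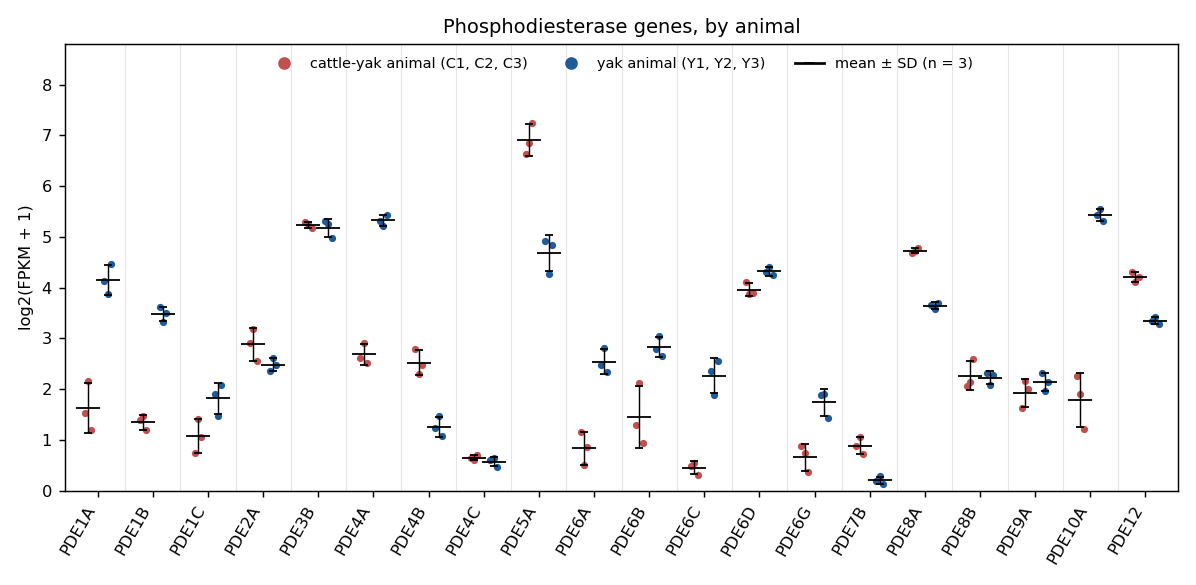
FPKM on the log2(FPKM + 1) scale of each animal for the 20 tested phosphodiesterase genes, with red points for C1 to C3, blue points for Y1 to Y3 and bars for the mean ± SD of the plotted values (n = 3). PDE5A lay at 98.1 to 151 FPKM in cattle-yak and 18.3 to 29.4 in yak, PDE10A at 1.33 to 3.78 and 38.9 to 45.9, and the PDE3B ranges overlapped.

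The 19 members that encode catalytic subunits of cyclic nucleotide phosphodiesterases summed to 219.8 ± 23.8 FPKM for cattle-yak and 213 ± 8.98 for yak as deposited (mean ± SD of 3 animals). After median-of-ratios scaling, computed once these values had been seen, the sums were 175.7 ± 17.4 and 263 ± 6.47, so their order depends on the scaling. Shares of the sum within a library do not. Enzymes that act mainly on cGMP (PDE5A, PDE6A, PDE6B, PDE6C and PDE9A) held 52.6%, 55.9% and 63.8% of the sum in C1, C2 and C3, and 21.7%, 18.3% and 21.1% in Y1, Y2 and Y3. Enzymes for both nucleotides held 23.8% ± 4.27 in cattle-yak and 53.1% ± 2.37 in yak, and enzymes specific for cAMP 18.8% ± 1.62 and 26.5% ± 1.29. The cAMP class lacks PDE4D and PDE7A, under which symbols no gene was found. The 3 animals of a group lay apart from the 3 of the other for each class. The classes are shares of a common sum, so they are not separate results. The shares were not tested, since a two-sided exact permutation test on groups of 3 cannot go under p = 0.1. PDE5A alone held 54.7% ± 6.24 of the sum in cattle-yak and 11.7% ± 2.37 in yak, and PDE10A 1.24% ± 0.69 and 19.96% ± 2.32. An FPKM share depends on the lengths of the gene models and does not measure enzyme activity.

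The make-up of PKA also differed between the groups. PRKACA, which encodes the catalytic subunit Cα, was the most abundant catalytic gene in every library, with 93.5, 101 and 86.3 FPKM in cattle-yak and 71.7, 71.0 and 64.1 in yak. Its log2 fold change of 0.43 ± 0.10 had an adjusted p of 0.00345 (limma) but stayed within the fold threshold, and median-of-ratios scaling turned its sign (−0.19). PRKACB, which encodes Cβ, had 48.4, 51.2 and 53.8 FPKM in cattle-yak and 8.87, 6.94 and 7.91 in yak. The groups of PRKACB were separate, and its log2 fold change was 2.55 ± 0.12 (limma, adjusted p = 5.46e-07). The ratio of PRKACA to PRKACB within a library was 1.93, 1.96 and 1.61 in cattle-yak and 8.09, 10.2 and 8.10 in yak.

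Among the regulatory subunits, PRKAR1A (RIα) was the most abundant gene in every library, with 309, 267 and 274 FPKM in cattle-yak and 482, 503 and 446 in yak. It was not called, with a log2 fold change of −0.75 ± 0.10 (limma, adjusted p = 0.000139), although all cattle-yak lay below all yak, and it was called lower after median-of-ratios scaling (−1.38). PRKAR2A (RIIα) behaved alike, with 82.7 to 85.7 FPKM in cattle-yak, 112 to 126 in yak and a log2 fold change of −0.46 ± 0.09, which became −1.08 after that scaling and was then called. PRKAR2B (RIIβ), in contrast, had 61.3, 94.0 and 80.7 FPKM in cattle-yak and 16.0, 14.2 and 16.8 in yak. Its log2 fold change was 2.24 ± 0.16 (limma, adjusted p = 4.35e-06). PRKAR1B overlapped between the groups, with 4.40 to 9.68 FPKM in cattle-yak and 5.80 to 8.90 in yak.

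PRKAR2B therefore took 17.4% ± 3.68 of the summed regulatory FPKM in cattle-yak against 2.54% ± 0.29 in yak (mean ± SD of 3 animals), while PRKAR1A took 62.4% ± 4.54 and 77.3% ± 2.37. The share of PRKAR2A was similar, at 18.6% ± 0.49 and 19.0% ± 1.86. The summed regulatory FPKM stood at 3.22, 2.99 and 3.21 times the summed catalytic FPKM in C1, C2 and C3, and at 7.68, 8.14 and 8.30 times it in Y1, Y2 and Y3. No cattle-yak library came near a yak library in this ratio. It was not tested, since a two-sided exact permutation test on groups of 3 cannot go under p = 0.1.

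**Figure D4:**
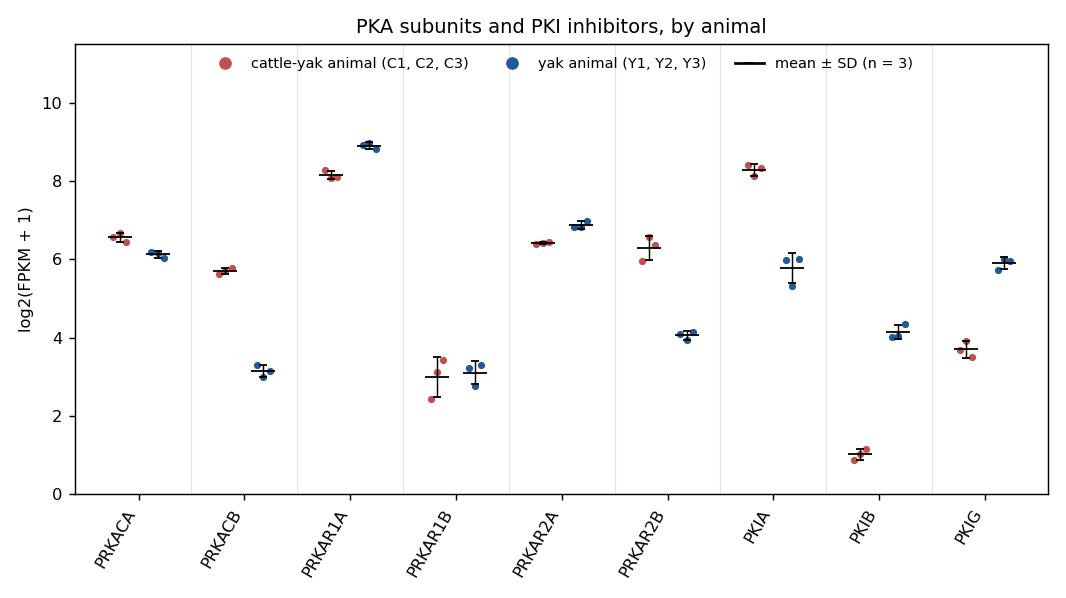
FPKM on the log2(FPKM + 1) scale of each animal for the catalytic and regulatory subunits of PKA and the 3 PKI inhibitors, with red points for C1 to C3, blue points for Y1 to Y3 and bars for the mean ± SD of the plotted values (n = 3). PRKACB, PRKAR2B and PKIA lay higher in each cattle-yak animal, PKIB and PKIG lower, and the PRKAR1B ranges overlapped.

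All 3 inhibitor genes were called, 1 in one direction and 2 in the other. PKIA, whose short peptide binds the active site of free catalytic subunits, had 337, 277 and 321 FPKM in cattle-yak and 62.3, 39.0 and 63.3 in yak (log2 fold change 2.51 ± 0.19; limma, adjusted p = 5.34e-06). PKIB, a form described in testis, had 0.825, 1.03 and 1.23 FPKM in cattle-yak and 15.2, 15.5 and 19.3 in yak (log2 fold change −3.12 ± 0.16; limma, adjusted p = 7.45e-07). PKIG had 11.8, 14.1 and 10.3 FPKM in cattle-yak and 52.3, 63.1 and 61.5 in yak (log2 fold change −2.21 ± 0.14; limma, adjusted p = 2.11e-06). None of these genes overlapped between the groups.

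PKIA made up 95.9% ± 0.94 of the summed PKI level in cattle-yak, whereas in yak PKIG held 45.6% ± 7.15, PKIA 41.7% ± 7.68 and PKIB 12.7% ± 0.91 (SD, n = 3). The shares of PKIA and PKIG in yak did not differ beyond their spread. The gene model of PKIA spans 231 bases, that of PKIG 846 and that of PKIB 4610, so the comparison of levels between these genes depends on the models. The cattle-yak level of PKIA rested on 921, 716 and 861 fragments. PKI genes summed to 2.46, 1.93 and 2.38 times the catalytic subunits in cattle-yak and 1.61, 1.51 and 2.0 times in yak, and these ranges overlapped.

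**Figure D5:**
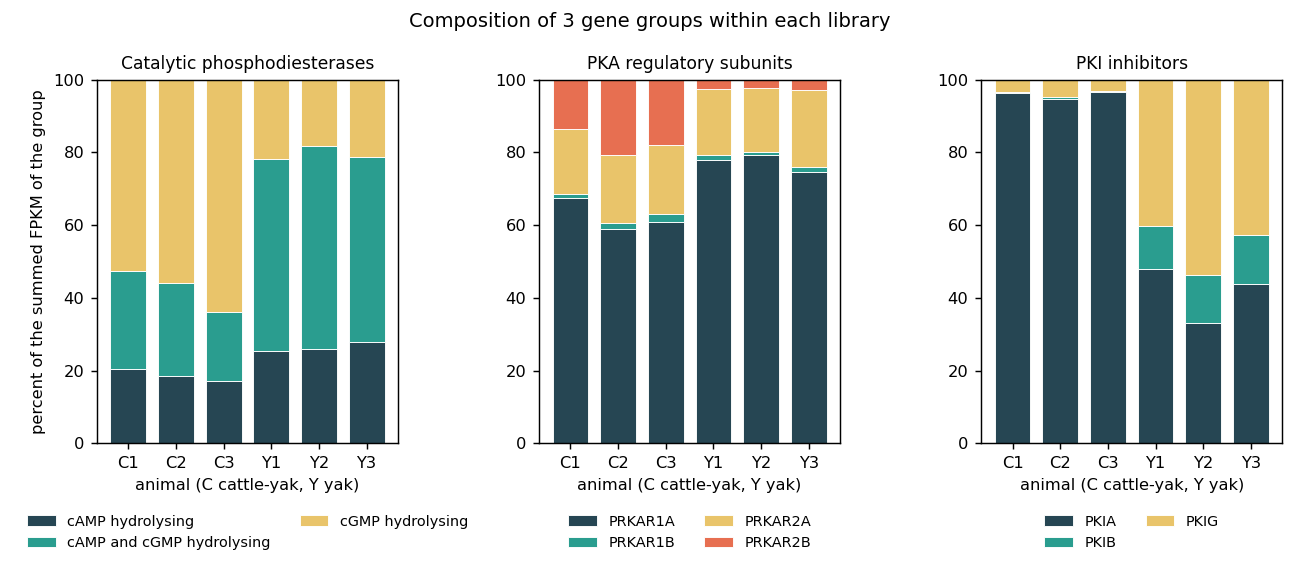
Percent of the summed FPKM of 3 gene groups within each library (C1 to C3 cattle-yak, Y1 to Y3 yak): catalytic phosphodiesterases by substrate, PKA regulatory subunits and PKI inhibitors, with each bar adding to 100. The cGMP class held at least 52.6% in each cattle-yak and at most 21.7% in each yak, and PKIA 94.8% to 96.5% and 33.1% to 48.0%.

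The cGMP-dependent kinases were scarce and not called. PRKG1, the kinase of smooth muscle, had 1.34 to 2.34 FPKM in cattle-yak and 4.06, 1.14 and 4.16 in yak, and Y2 lay within the cattle-yak range. PRKG2 had 0.128 to 0.407 FPKM in cattle-yak and 0.456 to 1.16 in yak, and its log2 fold change of −0.55 became −1.40 and was called with a pseudocount of 0.1.

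Of the 15 AKAP genes, 5 were higher in cattle-yak, 2 were lower and 8 were not called, where 33.4% of all tested genes were higher and 20.8% lower. AKAP1, which anchors PKA to the outer membrane of mitochondria, had 19.8, 20.1 and 18.1 FPKM in cattle-yak and 170, 174 and 197 in yak. It was 9.32 times as abundant in yak by the ratio of means, with a log2 fold change of −3.15 ± 0.10 (limma, adjusted p = 1.17e-07). AKAP14, an anchoring protein of cilia and the sperm fibrous sheath, had 1 fragment in C1 and none in C2 and C3, against 252, 236 and 222 in the yak libraries. Its yak level was 24.7 to 27.7 FPKM, and the fitted log2 fold change of −4.71 (limma, adjusted p = 9.81e-08) is set by the pseudocount and is no measure of the ratio. AKAP14 was the only one of the 19 members called lower with a deposited GO term for sperm, flagellum, cilium or acrosome, while 17.1% of all annotated genes called lower had one. Such a term was also held by 4 of the 15 annotated members called higher (3.69% of all annotated genes called higher), which were AKAP9 and, for cilium terms alone, PRKACB, ADCY5 and ADCY6. It was held by 5 of the 33 annotated members not called (5.06% of all annotated genes not called), PRKACA and ADCY3 among them. The rule of the set left out AKAP3, AKAP4 and the sperm cyclase ADCY10, so these counts depend on the choice of genes.

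On the higher side, AKAP7, a small anchor of PKA at membranes, had 12.3, 15.4 and 14.6 FPKM in cattle-yak and 2.46, 2.51 and 2.04 in yak (log2 fold change 2.17 ± 0.14; limma, adjusted p = 2.98e-06). AKAP5, a scaffold of PKA, PKC and calcineurin, had 3.54, 2.57 and 8.95 FPKM in cattle-yak and 0.472, 0.592 and 0.298 in yak (log2 fold change 1.91 ± 0.35; limma, adjusted p = 0.00102). C3 stood above the other cattle-yak for AKAP5, and each was still above every yak. AKAP9, a scaffold of the Golgi and the centrosome, had 14.9 to 16.3 FPKM in cattle-yak and 4.55 to 5.56 in yak (log2 fold change 1.42), but was not called after median-of-ratios scaling (0.86), and neither were AKAP17B (1.26, then 0.74) and AKAP2 (1.16, then 0.57).

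AKAP12, also called gravin, was the most abundant AKAP in each library, with 130, 163 and 149 FPKM in cattle-yak and 215, 217 and 223 in yak. It was not called (log2 fold change −0.57 ± 0.10; limma, adjusted p = 0.000962), but was called lower after median-of-ratios scaling (−1.20). AKAP12 held a like share of the summed AKAP level in both groups, 34.6% ± 2.31 and 37.2% ± 0.64 (SD, n = 3), whereas AKAP1 held 4.56% ± 0.38 in cattle-yak and 30.6% ± 1.54 in yak. AKAP8L and AKAP6 overlapped between the groups, and AKAP8, AKAP10, AKAP11, AKAP13 and AKAP17A had separate groups with log2 fold changes from −0.35 to 0.74. After median-of-ratios scaling the fold changes of these separate genes ran from −0.93 to 0.14, and AKAP11 changed sign (−0.06).

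Among the Rap exchange factors, RAPGEF3 was the only one called. RAPGEF3 (EPAC1), which cAMP activates directly without PKA, had 7.99, 10.3 and 8.78 FPKM in cattle-yak and 1.37, 1.51 and 1.21 in yak (log2 fold change 2.08 ± 0.15; limma, adjusted p = 4.49e-06). Its relative RAPGEF4 (EPAC2) had 53, 37 and 44 fragments in cattle-yak and 18, 10 and 4 in yak, and was not called at 0.70, though it was with a pseudocount of 0.1 (1.89). RAPGEF5 had the highest mean of the exchange factors over the 6 animals, although RAPGEF6 and RAPGEF1 had higher means in yak. It had 15.9 to 23.1 FPKM in cattle-yak and 9.42 to 13.4 in yak, and was not called (log2 fold change 0.82 ± 0.18; limma, adjusted p = 0.00294). RAPGEF1, RAPGEF2 and RAPGEF6 were not called either, at −0.24, 0.46 and 0.39 (−0.81, −0.03 and −0.20 after median-of-ratios scaling).

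The 3 channel subunits called were all lower in cattle-yak, and 4 of the 6 were tested. CNGB1, the modulatory subunit of rods and olfactory neurons, had 1, 2 and 2 fragments in cattle-yak and 296, 438 and 214 in yak, that is 0.0172 to 0.0364 FPKM against 3.35 to 6.80 (log2 fold change −2.48 ± 0.22; limma, adjusted p = 1.43e-05). CNGB3, the modulatory subunit of cones, had 1, 2 and 0 fragments in cattle-yak and 155, 19 and 205 in yak, where Y2 stood far under the other yak. The groups of CNGB3 did not overlap (log2 fold change −2.04 ± 0.52; limma, adjusted p = 0.00606). The pseudocount sets the size of both fold changes, and voom on the fragments gave −6.99 for CNGB1 and −5.94 for CNGB3. CNGA3, the channel-forming subunit of cones, which has also been described in sperm, was the most abundant, with 23.3, 10.3 and 16.1 FPKM in cattle-yak and 39.1, 41.6 and 25.0 in yak. C1 and Y3 lay close together for CNGA3, and its log2 fold change of −1.08 ± 0.29 (limma, adjusted p = 0.00828) fell within the threshold without C2 (−0.80), without Y1 (−0.99) or without Y2 (−0.95). CNGA4 was not called at −0.61, and CNGA1 and CNGA2 stayed under the minimum, as did PDE6H.

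The same fit covered 73 other symbols of the pathway on 83 gene models, of which 67 were tested, 21 were higher, 19 were lower and 27 were not called (13 higher and 20 lower after median-of-ratios scaling). Of all tested genes 33.4% were higher and 20.8% lower (17.4% and 27.9% after that scaling). Of the 17 tested receptors, ligands and nitric oxide synthases, 6 were higher and 4 were lower (4 and 5 after that scaling). FSHR, the Sertoli receptor for FSH, had 31.4, 42.1 and 33.5 FPKM in cattle-yak and 4.35, 5.11 and 7.94 in yak (log2 fold change 2.46). LHCGR, the Leydig receptor for LH, had 20.6 to 23.5 FPKM in cattle-yak and 3.92 to 6.75 in yak (log2 fold change 1.92). Both receptors are also in the Sertoli and Leydig marker lists, whose summed levels were higher in the same libraries.

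Of the adenosine receptors, ADORA1 and ADORA3 were called, in opposite directions. ADORA2A was not called, with 3.96 to 5.74 FPKM in cattle-yak and 7.68 to 8.32 in yak. Its log2 fold change was −0.59, and −1.13 after median-of-ratios scaling. ADORA2B was not called and overlapped between the groups. ADORA1, which inhibits adenylyl cyclase, had 80.2 to 87.1 FPKM in cattle-yak and 13.7 to 15.8 in yak (log2 fold change 2.43). ADORA3, which also inhibits it, had 5.13, 3.51 and 1.54 FPKM in cattle-yak and 49.2, 49.1 and 53.0 in yak (log2 fold change −3.64). On the cGMP side, NOS1, the neuronal nitric oxide synthase, had 0.198 to 0.252 FPKM in cattle-yak and 4.35 to 4.77 in yak (log2 fold change −2.19), and NPR1, the receptor of atrial natriuretic peptide, was lower by 1.62 on the log2 scale. NOS3, the endothelial synthase, was higher, with 10.4, 5.39 and 5.76 FPKM in cattle-yak and 2.17, 1.94 and 1.73 in yak (log2 fold change 1.43, and 0.94 and not called after median-of-ratios scaling). ADCYAP1R1 and NPR3 were higher as well (2.26 and 1.25, then 1.78 and 0.87), and ADCYAP1 was lower (−1.02).

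Of the 13 tested gene models of G proteins and their regulators, 9 were higher and 4 were not called (6 higher after median-of-ratios scaling). GNAS, which encodes the stimulatory alpha subunit, had 224, 249 and 235 FPKM in cattle-yak and 55.2, 49.1 and 49.5 in yak on its main model (log2 fold change 2.18). Its other model stayed near 1 FPKM and was not called. RGS2, a regulator of G protein signalling, was higher by 2.65 on the log2 scale. The inhibitory alpha subunits GNAI2 and GNAI3 were not called, at −0.01 and 0.27 (−0.63 and −0.35 after median-of-ratios scaling), while GNAI1 was higher by 1.63.

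Of a list of sperm genes, not all of which make cAMP or work under it, 8 of 8 tested genes were lower in both scalings. These were ADCY10, ROPN1, SLC9C1, SLC26A8, SPA17, CABYR, CATIP and EFCAB9. CFTR of the same list stayed under the minimum and overlapped between the groups, with 0.354 to 0.720 FPKM in cattle-yak and 0.256 to 0.522 in yak. ADCY10, the bicarbonate-stimulated cyclase of sperm, had 1.02, 0.616 and 0.0963 FPKM in cattle-yak and 12.7, 11.7 and 11.2 in yak (log2 fold change −3.07; limma, adjusted p = 5.14e-06). ROPN1, a fibrous sheath protein with a PKA-anchoring fold, was lower by 5.64, and SLC9C1, a sperm sodium-proton exchanger with a cyclic nucleotide-binding domain, by 3.78 on the log2 scale. C1 had the most and C3 the least of the cattle-yak for each of these 3 genes, and the summed round spermatid markers were 61.8, 34.6 and 14.6 FPKM in C1, C2 and C3. Of the members called lower, only PDE10A and PDE6G fell from C1 through C2 to C3. Others had different orders, such as PKIB and GUCY1B1, which rose, and PDE4A, which was highest in C2. The part of spermatid RNA in the levels of any of these genes was not tested, and an order of 3 animals is no test of it.

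In the CREB family, 4 of 9 tested gene models were lower and 1, CRTC3, was higher, which was not called after median-of-ratios scaling (1.47, then 0.87). CREM, the cAMP-responsive modulator that activates genes of spermatids, had 23.8, 16.0 and 6.60 FPKM in cattle-yak and 255, 255 and 265 in yak on its main model (log2 fold change −4.14), and was lower on its second model as well (−3.07). FHL5, the coactivator of CREM in testis, was lower by 5.60 on the log2 scale. CREB1 itself was not called, with 17.5 to 22.1 FPKM in cattle-yak and 11.9 to 14.4 in yak (log2 fold change 0.55, and −0.04 after median-of-ratios scaling). CREM also stands in the round spermatid marker list.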

How the data were processed

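RNA was taken from the testes of 3 cattle-yak and 3 yak, 1 library per animal (TruSeq Stranded mRNA, paired-end Illumina reads). Per the study's methods, the authors trimmed reads with Trimmomatic, mapped both groups to the yak genome LU_Bosgru_v3.0 with HISAT2 and computed FPKM with Cufflinks. The FPKM values, scaled by depth, were deposited by the authors without further scaling between libraries. Mapping hybrid reads to one parent's genome could lower the values of divergent genes. Low FPKM values came in steps of 1 fragment, from which whole fragments were recovered for 17973 genes, with 100% of their values within 0.03 fragments of a whole number. Whether these whole fragments came from Cufflinks or from another counter is uncertain.

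The 15042 genes averaging 0.5 FPKM or more were fitted with limma 3.58.1 in R 4.3.3 (lmFit, eBayes with trend, two-sided, no covariates) on log2(FPKM + 1), a scale that understates changes of low genes. P-values were adjusted by Benjamini-Hochberg over all tested genes, and a call needed both an adjusted p below 0.05 and a log2 fold change larger than 1 in size. With 1 library per animal, p-values measure the spread between these animals. Tables were made in Python 3.11.15 (numpy 2.4.6, pandas 2.3.3) and figures in matplotlib 3.10.9. The scripts were tested on simulated data.

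The members and all lists of genes were chosen with earlier results of these data known. Named in full were per direction, the 10 called members whose log2 fold change was largest and whose groups did not overlap, the most abundant gene of each role or family, and every PKA subunit. Other members, and pathway genes that were called, were named with their values after these were seen. The phosphodiesterase classes followed textbook substrates. Alternatives changed the pseudocount (0.1), the filter (none, or a mean of 1 FPKM), the scaling (TPM, quantile or median-of-ratios), the variance trend (none) and the fold threshold (none), used voom in limma on the recovered fragments, or left out 1 animal at a time. The scaled sum of phosphodiesterases was added after the data were seen.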

Additional observations from a re-analysis of the deposited data

How the results depend on the processing

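Calls were 16 members higher and 19 lower, and 5023 of all genes higher. With median-of-ratios scaling these were 9 higher, 23 lower and 2624 of all genes higher, and the median of the members became −0.50. Among the 37 tested genes chosen by the rule, PRKACA (−0.19), PDE2A (−0.13) and PDE3B (−0.55) then changed sign. Other members did so too, such as AKAP8L (0.08, then −0.54) and ADCY3 (0.18, then −0.39). Without a fold threshold, 28 members and 7916 of all genes were higher, because adjusted p alone then made the call. Voom on the recovered fragments and a pseudocount of 0.1 each gave 19 higher and 22 lower members, adding RAPGEF4, ADCY8, PDE7B, CNGA4, PRKG2 and PDE1C, which are genes of low level; voom called 5964 of all genes higher and 3416 lower. Leaving out each animal in turn gave 15 to 16 members higher, 18 to 19 lower and a median between −0.10 and 0.08. Among the 37 genes, signs changed for PRKAR1B (−0.32 to 0.17, positive without C1), GUCY2C (−0.38 to 0.32, positive without Y3) and PDE3B (−0.041 to 0.13, negative without Y3). Of the 37 tested genes chosen by the rule, 25 kept their call and direction in each alternative that kept the fold threshold. With 3 animals a group, small differences are not detectable, and genes such as AKAP14, CNGB1, CNGB3 and GUCY1A2 rest on 0 to 5 fragments in cattle-yak libraries. No paired analysis was possible because the groups are different animals whose labels share no number.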

Other observations

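Of the 6 tested genes of other proteins that bind cyclic nucleotides or belong beside PKA, 2 were higher and 3 were lower, also after median-of-ratios scaling. CNBD1 and CNBD2, which carry cyclic nucleotide-binding domains, had 0.0411 to 0.121 and 0.778 to 1.67 FPKM in cattle-yak, against 15.9 to 20.5 and 15.6 to 22.4 in yak (log2 fold changes −4.16 and −3.22). POPDC3, a cAMP-binding membrane protein, was lower by 2.60 on the log2 scale. PRKX, a kinase related to the PKA catalytic subunits, was higher, with 28.7, 30.1 and 33.3 FPKM in cattle-yak and 7.03, 5.99 and 7.00 in yak (log2 fold change 2.05). HCN2, a pacemaker channel that cAMP opens, was higher by 1.50 on the log2 scale, and HCN3 was not called (−0.16).

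Of a mixed list of other regulators, 3 of 14 tested gene models were higher (1 after median-of-ratios scaling). These were models of RAP1A, RAP1B, CAP1, CAP2, ABCC4, PPP1R1B and GUCA1A, of which only RAP1A and RAP1B lie downstream of the exchange factors. RAP1B was higher on 2 of its 3 gene models, with 129 to 150 FPKM in cattle-yak and 50.4 to 63.7 in yak on the most abundant one (log2 fold change 1.31, and 0.69 and not called after that scaling). RAP1A was not called (0.73). CAP2, a cyclase-associated protein of muscle, was higher, with 21.1, 27.8 and 28.9 FPKM in cattle-yak and 4.01, 3.08 and 5.84 in yak (log2 fold change 2.36), while its relative CAP1, at 149 to 161 FPKM in cattle-yak and 163 to 168 in yak on its main model, was not called (−0.08). Symbols on several gene models, such as RAP1B and CAP1, are uncertain, since reads may be split between the models.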
